A study of Mus musculus with 13 samples.

Results

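Hox genes encode homeodomain transcription factors that give cells their position along the head-to-tail axis. In the mouse they lie in 4 clusters, HoxA to HoxD, and genes of the same number in different clusters are paralogues. Low numbers, at the 3′ end of a cluster, are used towards the head, and high numbers, at the 5′ end, towards the tail. In many adult cells the clusters keep the state set in the embryo, with Polycomb complexes holding the silent part and acetylated histone H3 on the active part. Cells of cranial neural crest origin and cells of trunk origin therefore commonly differ in their Hox state, and melanocytes descend from the neural crest.

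H3K27ac, an acetylation of histone H3 found at active promoters and enhancers, had been mapped by ChIP-seq in 9 mouse melanoma lines, and the deposited list of peaks of each line was examined at the Hox clusters. The members were all protein-coding genes of the GENCODE M21 annotation of GRCm38 (mm10) named Hoxa, Hoxb, Hoxc or Hoxd followed by a number, which gave 39 of 21951 protein-coding genes, of which 38 are described (10 in HoxA, 10 in HoxB, 9 in HoxC and 9 in HoxD). The promoter of a gene counted as called in a line if its list had a peak no further than 1 kb from any start site of the gene in that annotation. All lines came from melanomas of mice on a C57BL/6J background with an NRAS transgene driven by the tyrosinase promoter (Tyr::NRAS, Q61K), 1 disrupted copy of Cdkn2a (Cdkn2a+/-) and floxed Cdh1 (Cdh1 F/F). In the ΔEcad lines Cdh1, the gene of E-cadherin, had been deleted by Tyr::CreA, a Cre driven by the tyrosinase promoter active in melanocytes and their precursors, and the Ecad lines had kept the gene. The Ecad lines were Ma_1007 and Ma_1181 (male) and Ma_1014 and Ma_1039 (female), and the ΔEcad lines were Ma_1062 and Ma_1456 (male) and Ma_1057, Ma_1064 and Ma_1069 (female). Each line was grown untreated and had 1 list. The ages of the mice and the body sites of the tumours are not given in the sources used here.

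The lists held 20741 to 41663 peaks, with a lowest −log10 q of 5 or just above in each. The lists carry no depth, so it is unknown, and a promoter without a peak is one without a peak past the threshold, not one without the mark. Among 10 melanocyte genes, 7 to 10 promoters were called per line, and those of Mitf, Sox10, Dct, Tyr, Pmel, Mlana and Pax3 were called in all 9. The others were called in some lines only, Tyrp1 in 6, Kit in 5 and Ednrb in 3. Of 10 fibroblast genes, 0 to 3 were called per line and Col1a1, Col1a2, Col3a1, Pdgfrb, Dcn, Lum and Twist2 in none. Of 5 keratinocyte and 5 endothelial genes at most 1 was called in any line, and of 5 immune genes at most 2. The keratinocyte gene was Krt10, called in 5 lines. The Cdh1 promoter was called in 0 of 9 lists. A promoter call does not check the deletion, which lies inside the gene.

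Most Hox promoters carried no H3K27ac peak in any line, and those that did differed from line to line. Of the 38 genes, 9 were called in at least 1 line and 29 (76.32%) in none, against 47.12% of all protein-coding genes in none. No Hox promoter was called in all 9 lines, against 21.06% of all genes, and the most often called member was Hoxb9, in 4 lines. Over the 342 pairs of a gene and a line, 21 were called. All called genes belonged to HoxA (2 of 10) or HoxB (7 of 10).

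Male Ecad lines had 2 genes called in Ma_1007 and 1 in Ma_1181. Female Ecad lines had 5 in Ma_1014 and 4 in Ma_1039. Male ΔEcad lines had 1 in Ma_1062 and 3 in Ma_1456, and female ΔEcad lines had 0 in Ma_1057, 0 in Ma_1064 and 5 in Ma_1069. Between 0% and 13.16% of the Hox genes were thus called per line, below the 25.31% to 48.6% of all protein-coding genes in every line. Ma_1069, which had the smallest share of all promoters called (25.31%), had the largest share of Hox promoters called, together with Ma_1014.

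**Figure D1:**
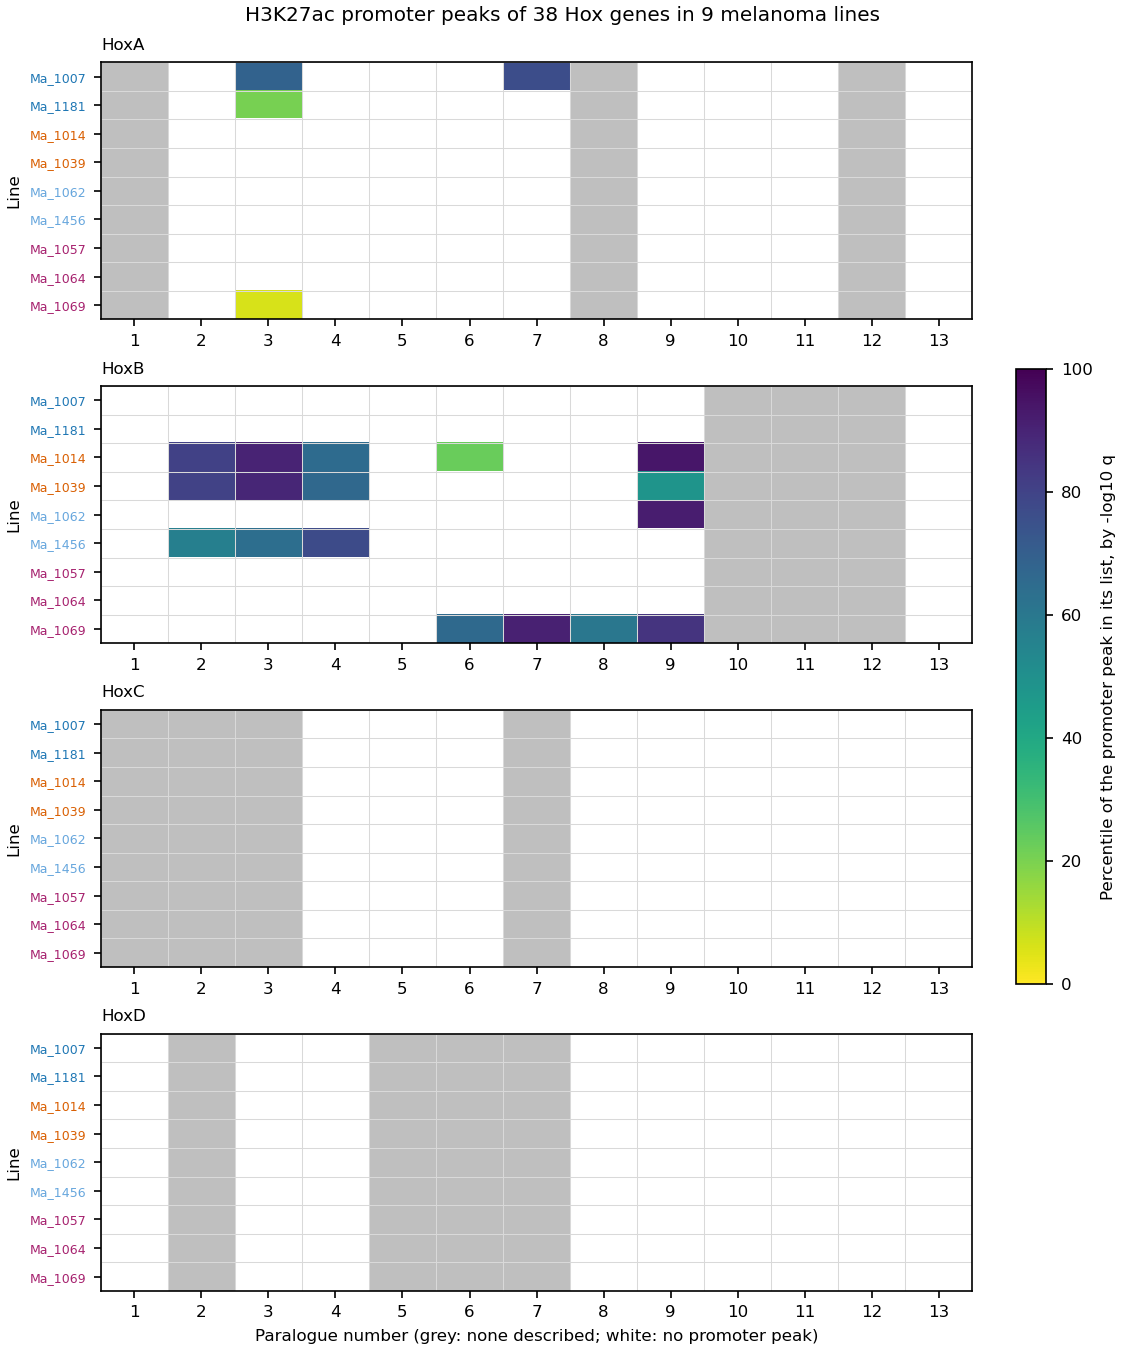
Promoter peaks of 38 Hox genes. Each panel is a cluster, columns are paralogue numbers, rows are lines (names in blue for male Ecad, orange for female Ecad, light blue for male ΔEcad and magenta for female ΔEcad), and colour gives the percentile of the highest promoter peak within its list by −log10 q. The filled cells are confined to 2 genes of HoxA and 7 of HoxB, and the HoxC and HoxD panels have none.

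**Figure D2:**
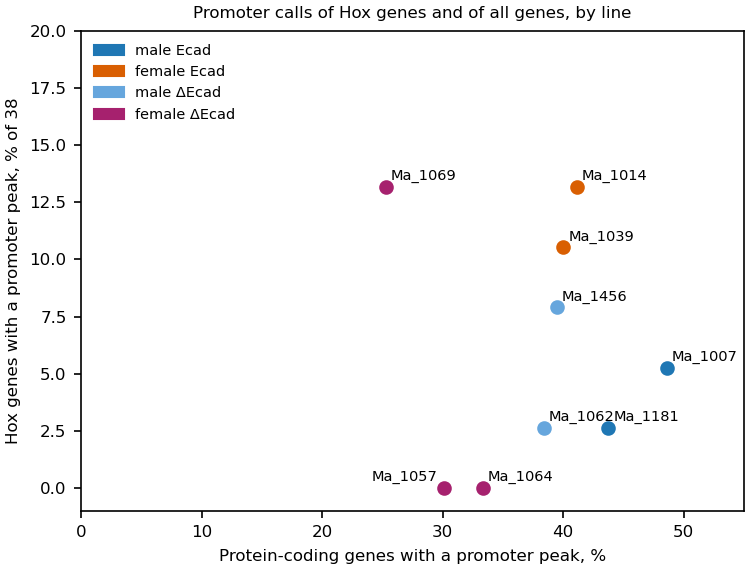
Share of Hox promoters with a peak (vertical axis, % of 38) against the share of all protein-coding promoters with a peak (horizontal axis, %), 1 point per line coloured by group. Every line lies far below equality, and Ma_1069 has the lowest value on the horizontal axis with a Hox share of 13.16%.

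The part of a Hox cluster that peaks covered in the most lines lay beside a microRNA gene. In Ma_1014 and Ma_1062 the peak over that part also covered the start of Hoxb9. A stretch of 0.959 kb of HoxB, at chr11:96265791-96266749 in GRCm38, was covered in 6 of the 9 lists: Ma_1181, Ma_1014, Ma_1039, Ma_1062, Ma_1064 and Ma_1069. It begins 526 bp after the end of Mir196a-1 and ends 4.708 kb before the start of Hoxb9, between these genes. MicroRNAs pair with messenger RNAs through their seed, and those of the miR-196 and miR-10 families are encoded in Hox clusters, where miR-196 is known for acting on Hoxb8 messenger RNA. Their mature sequences (RefSeq, GRCm38.p6) are shown because their genes lie in different clusters with different peaks. Capitals mark the seed, bases 2 to 8 from the 5′ end.
miR-196a-5p: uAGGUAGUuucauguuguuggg
miR-196b-5p: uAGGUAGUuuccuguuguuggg
miR-10a-5p: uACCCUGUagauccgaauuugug
miR-10b-5p: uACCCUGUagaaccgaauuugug

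The first pair shares the seed AGGUAGU and the second pair ACCCUGU, but the copies stood in differently marked clusters. The start of a microRNA gene was that of its annotated record, and where its longer transcript begins was not tested. The Mir196a-1 gene in HoxB was called in 6 lines. A peak covered its miR-196a-5p in Ma_1014, Ma_1062 and Ma_1069. In Ma_1039, Ma_1064 and Ma_1181 the nearest peak lay 0.04, 0.055 and 0.583 kb away. Mir196a-2 in HoxC, which encodes the same mature miR-196a-5p, was called in 0 lines, with the nearest peak 114.1 to 240.5 kb away. Mir196b in HoxA was called in 0 lines, and its nearest peak was 8.302 kb away in Ma_1007 and 16.11 kb away in Ma_1181. Mir10a in HoxB, upstream of Hoxb4, was called in Ma_1014, Ma_1039 and Ma_1456, but no peak covered it. The peak nearest to miR-10a-5p in these lines, 0.876 to 0.941 kb away, was the Hoxb4 promoter peak. The calls of Mir10a and Hoxb4 are therefore not independent. Mir10b in HoxD was called in 0 lines with the nearest peak at least 99.3 kb away. The remaining microRNA genes of the clusters, Mir615 in HoxC and Gm44463 in HoxD, had no call.

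Of the 6 peaks over the shared stretch, 3 were narrower than 2 kb, those of Ma_1181 (995 bp), Ma_1039 (1825 bp) and Ma_1064 (1487 bp). Their summits, the highest points, fell at positions 96266026, 96266040 and 96266029, within 15 bases of each other. In Ma_1062, Ma_1014 and Ma_1069 the stretch lay in peaks of 10982, 10111 and 8140 bp, with summits 843 bp, 4645 bp and -2057 bp from the median of the 6 summits. The 300 bases around that median are shown (GRCm38.p6, chr11:96265885-96266184, plus strand), with the 15 bases that span the 3 close summits in capitals.
HoxB shared stretch: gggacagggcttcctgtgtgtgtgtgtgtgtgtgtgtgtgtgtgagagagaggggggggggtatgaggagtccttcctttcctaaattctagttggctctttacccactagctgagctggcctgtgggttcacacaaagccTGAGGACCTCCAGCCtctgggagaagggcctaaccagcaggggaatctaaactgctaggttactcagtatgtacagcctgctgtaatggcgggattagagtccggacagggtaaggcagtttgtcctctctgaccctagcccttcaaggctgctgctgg

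This sequence holds 2 CpG dinucleotides and a run of repeated gt. Ma_1181 and Ma_1064 had no other peak in HoxB, so in these lines the cluster carried this 1 peak and no called Hox promoter of HoxB.

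HoxB was the most covered cluster and its marked part differed between lines. Peaks covered 27.98 kb of the 173.9 kb from Hoxb13 to Hoxb1 in Ma_1014, 22.99 kb in Ma_1069, 22.14 kb in Ma_1062, 18.18 kb in Ma_1039 and 14.1 kb in Ma_1456. They covered 1.487 kb in Ma_1064, 0.995 kb in Ma_1181, and 0 kb in Ma_1007 and Ma_1057. The lines with 14.1 kb or more included both female Ecad lines, both male ΔEcad lines and 1 of 3 female ΔEcad lines. Merged over lists the peaks formed 16 regions, of which 9 were found in 1 list and 6 held the start of a Hox gene.

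The part from Hoxb4 to Hoxb2 was marked in Ma_1014 (10.68 kb), Ma_1039 (11.15 kb) and Ma_1456 (11.45 kb) and in none of the other 6 lines. The part from Hoxb9 to Hoxb5 carried 9.228 kb in Ma_1069, 4.148 kb in Ma_1014 and 1.346 kb in Ma_1062, and 0 kb elsewhere. The part between Hoxb13 and Hoxb9, which holds Gm53 and Mir196a-1, carried 20.8 kb in Ma_1062, 10.29 kb in Ma_1069 and 9.822 kb in Ma_1014. Ma_1062 and Ma_1456, both male ΔEcad, therefore shared 0 kb of HoxB. Ma_1456 had 11.52 kb in common with Ma_1014 and 11.45 kb with Ma_1039, both female Ecad lines. The Jaccard index, the shared over the total length, was 0.3771 with Ma_1014 and 0.5494 with Ma_1039, and that of the female Ecad pair was 0.5412.

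**Figure D3:**
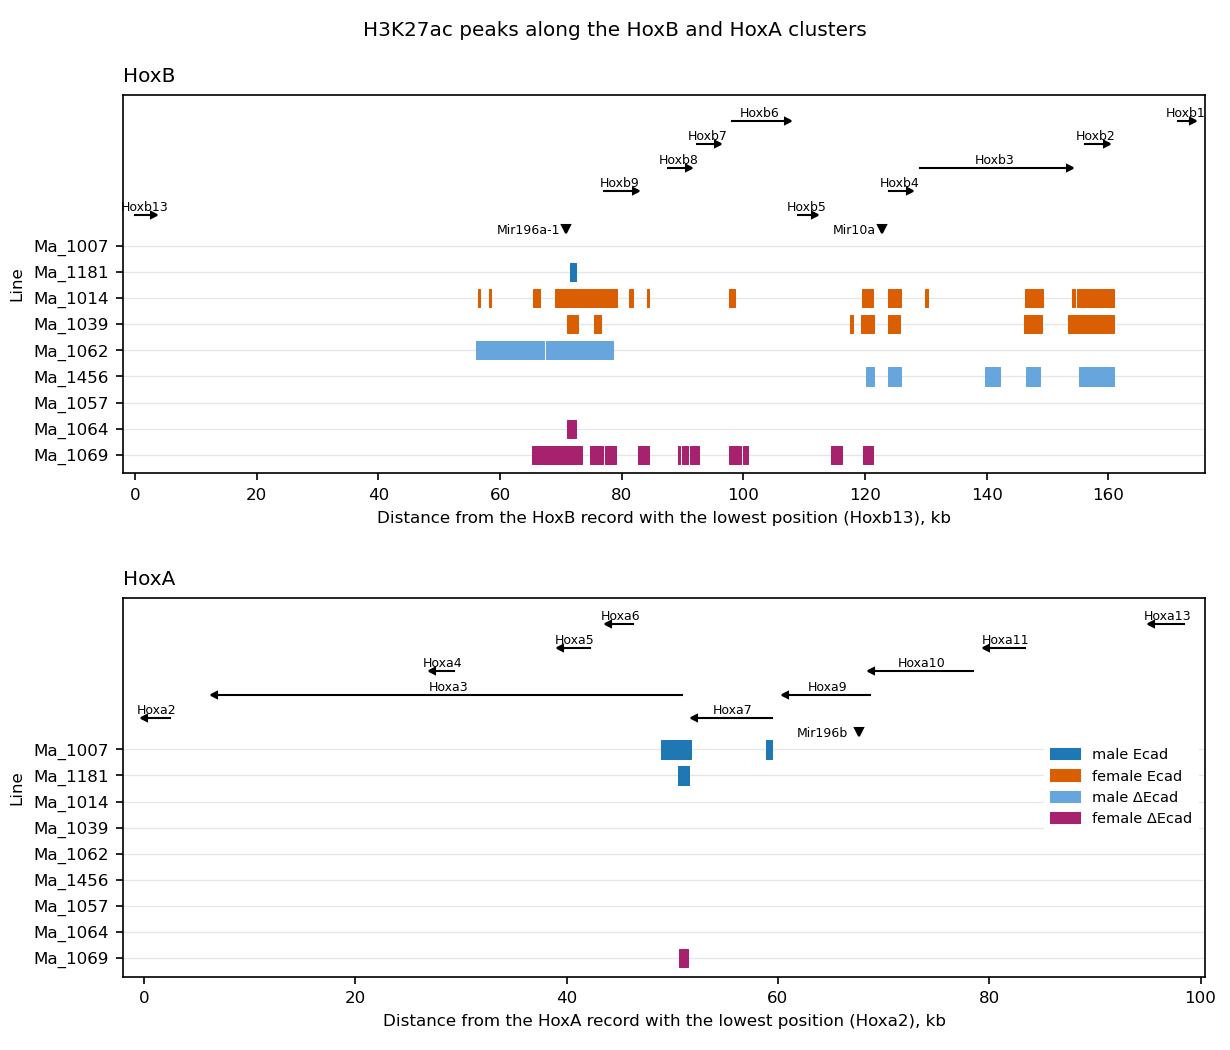
Peaks along HoxB (top) and HoxA (bottom), 1 row per line, coloured by group. The horizontal axis is the distance in kb from the lowest position of the cluster, arrows give the Hox genes in the direction of transcription and triangles the microRNA genes. Peaks over Hoxb4, Hoxb3 and Hoxb2 stand in Ma_1014, Ma_1039 and Ma_1456, and those from Hoxb8 to Hoxb6 mainly in Ma_1069. Peaks at Hoxb9 stand in Ma_1014, Ma_1039, Ma_1062 and Ma_1069, and HoxA has peaks in Ma_1007, Ma_1181 and Ma_1069.

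Among the anterior members, Hoxb2 and Hoxb3, known for patterning the hindbrain, were called in Ma_1014, Ma_1039 and Ma_1456. The Hoxb2 peak was 6092 bp wide with 18.62-fold enrichment in Ma_1014, 7720 bp with 17.28-fold in Ma_1039 and 5789 bp with 7.267-fold in Ma_1456. Each covered both annotated starts of Hoxb2, and these were the widest promoter peaks of the anterior and central members.

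Of the annotated starts of Hoxb3, the peaks lay over an inner one at position 96340945 in all 3 lines, and not over the outermost one at 96323326. The inner peak was 3074 bp with 29.61-fold enrichment in Ma_1014, 2888 bp with 24.71-fold in Ma_1039 and 2417 bp with 10.31-fold in Ma_1456. Its summits lay within 42 bp of each other. Ma_1014 had in addition a 504-bp peak 782 bp from the outermost start. With the outermost start alone, Hoxb3 was called in 1 line.

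Hoxb4, a central member known for its role in blood stem cells, was called in the same 3 lines. Its peak was 2067 bp with 13.65-fold enrichment in Ma_1014, 1953 bp with 13.01-fold in Ma_1039 and 2087 bp with 15.09-fold in Ma_1456. The 3 summits lay within 75 bp of each other. A region 2.447 kb before the start of Hoxb4 (chr11:96313625-96315820) was covered in these lines and in Ma_1069, where the Hoxb4 promoter itself was not called. The 4 summits there lay within 178 bp of each other, and the peak was 13.58-fold enriched in Ma_1456, 12.05-fold in Ma_1014, 10.32-fold in Ma_1039 and 3.904-fold in Ma_1069.

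Hoxb6, Hoxb7 and Hoxb8, central members used in the trunk, were called mainly in Ma_1069. The Hoxb7 peak there was 1548 bp wide with 16.96-fold enrichment, at the 90.67 percentile of the list by −log10 q. Hoxb6 was called in Ma_1069 (2010 bp, 9.323-fold) and in Ma_1014 (990 bp, 6.051-fold). Hoxb8 was called in Ma_1069 from a 405-bp peak with 7.381-fold enrichment that lay 801 bp from the nearest start, so that a window of 500 bp left it in 0 lines. Hoxb5, between Hoxb6 and Hoxb4, was called in no line, and its nearest peak lay 5.229 kb away in Ma_1069.

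Hoxb9, the posterior member called most often, is used in the thoracic region. It was called in Ma_1014 from a peak of 10111 bp with 33.67-fold enrichment, at the 94.13 percentile of the list, and in Ma_1062 from a peak of 10982 bp with 29.6-fold enrichment, at the 91.94 percentile. In Ma_1069 the larger of a pair of peaks was 2146 bp with 13.11-fold enrichment. In Ma_1039 the call rested on a 1228-bp peak with 8.119-fold enrichment that ended 532 bp before the start. The long peaks of Ma_1014 and Ma_1062 also ran over Mir196a-1, so the calls of both genes there are not independent. Hoxb1 and Hoxb13, at the ends of the cluster, were called in no line.

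HoxA was marked at few places, and most of all in Ma_1007, the line with the longest list of peaks. The covered length was taken over the 98.46 kb from Hoxa2 to Hoxa13. It was 3.458 kb in Ma_1007, 1.061 kb in Ma_1181 and 0.902 kb in Ma_1069, and 0 kb in the other 6 lines. Per Mb that the list covers, it was 0.05148 kb in Ma_1007, 0.02606 kb in Ma_1181 and 0.03057 kb in Ma_1069. Hoxa7 was called in Ma_1007 alone, from a 580-bp peak with 11.8-fold enrichment 27 bp from a start.

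Hoxa3, needed for the thymus and parathyroid, was called in 3 lines. Its peak was 2878 bp with 9.06-fold enrichment in Ma_1007, 1061 bp with 4.127-fold in Ma_1181 and 902 bp with 2.869-fold in Ma_1069. The last was weak within its list, at the 6.181 percentile by −log10 q, against 20.66 in Ma_1181 and 68.61 in Ma_1007. The 3 summits lay within 143 bp of each other at the outer starts of the gene, which are far from its inner ones. Hoxa2, Hoxa4, Hoxa5, Hoxa6, Hoxa9, Hoxa10, Hoxa11 and Hoxa13 were called in no line.

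No peak of any line lay in HoxC or HoxD. The stretch without a peak around HoxC (115.8 kb from Hoxc13 to Hoxc4) ran over 365.4 kb in Ma_1007 and up to 542.9 kb in Ma_1069. Around HoxD (96.83 kb from Hoxd13 to Hoxd1) it ran from 245.9 kb in Ma_1007 to 1286 kb in Ma_1057. Hoxc4, Hoxc5, Hoxc6, Hoxc8, Hoxc9, Hoxc10, Hoxc11, Hoxc12 and Hoxc13 were uncalled throughout, as were Hoxd1, Hoxd3, Hoxd4, Hoxd8, Hoxd9, Hoxd10, Hoxd11, Hoxd12 and Hoxd13. Hoxc13 is known for its role in hair, and Hoxd13 for its role in digits. Whether the copy number of these loci differed between lines was not tested.

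Genes with a promoter peak in all 9 lines stood on both sides of each cluster, but not close to it. The nearest such gene on a side lay between 118.6 kb (Atp5g1, HoxB) and 894.1 kb (Hnrnpa3, HoxD) from the cluster. Of the 24 genes that flank the clusters, 3 on each side, 13 were called in all 9 lines, 5 in none and 6 in some. Over all protein-coding genes, 21.06% were called in all 9 and 47.12% in none. Atp5g2, Atf7, Cbx5 and Hnrnpa1 around HoxC and Atp5g3, Hnrnpa3 and Nfe2l2 around HoxD were called in all 9. Evx1 and Evx2, homeobox genes next to the posterior ends of HoxA and HoxD, were called in none. Nor were Ttll6, Calcoco2 and Skap1, the genes nearest to HoxB. Mtx2, 60.66 kb from HoxD, was called in 7 lines.

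Non-coding genes inside the clusters were called in HoxB only. Of 38 such genes within the spans used here, 5 were called in any line, all in that cluster. Gm53 was called in Ma_1014, Ma_1062 and Ma_1069, and the antisense genes Gm11536 and Hoxb3os were called in Ma_1014, Ma_1039 and Ma_1456. The 5′ end of Gm11536 lay under the Hoxb3 promoter peaks and that of Hoxb3os under the Hoxb2 promoter peaks. Their calls are therefore not independent of those of Hoxb3 and Hoxb2. Hotair, a long non-coding RNA of HoxC known for its link with Polycomb, was called in no line.

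Sorted by position, the anterior members (numbers 1 to 3) gave 9 of the 21 calls from 7 genes, the central members (4 to 8) gave 8 from 15 genes, and the posterior members (9 to 13) gave 4 from 16 genes, all 4 at Hoxb9. Paralogue group 3 had calls in 6 lines, at Hoxa3 in Ma_1007, Ma_1181 and Ma_1069 and at Hoxb3 in Ma_1014, Ma_1039 and Ma_1456, with no line calling both. Groups 5, 10, 11, 12 and 13 had no call.

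The DNA before the starts of called and uncalled members was compared as a description. In the 250 bases before the outermost start of each gene, the 38 Hox genes held a median of 13 CpG dinucleotides, against 8 over 21938 protein-coding genes. The 9 called genes had a median of 12 (range 3 to 16) and the 29 uncalled members of 14 (range 2 to 41), so the ranges overlapped. The medians were 12.5 in HoxA, 11.5 in HoxB, 15 in HoxC and 12 in HoxD. The 250 bases before a RefSeq start (GRCm38.p6) are shown for Hoxa3, called in 3 lines, Hoxb4, called in 3 others, and Hoxd4, the HoxD paralogue of Hoxb4, called in none. Capitals mark matches on either strand to the TATA box TATAAA, the GC box GGGCGG or the CCAAT box, which do not overlap each other here.
Hoxa3, chr6:52213068-52213317, minus strand: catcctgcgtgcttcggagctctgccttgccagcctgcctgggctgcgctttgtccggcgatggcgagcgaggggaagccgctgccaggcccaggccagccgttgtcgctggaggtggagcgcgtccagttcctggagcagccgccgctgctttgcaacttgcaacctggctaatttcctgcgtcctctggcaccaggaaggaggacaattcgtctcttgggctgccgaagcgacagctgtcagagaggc
Hoxb4, chr11:96318017-96318266, plus strand: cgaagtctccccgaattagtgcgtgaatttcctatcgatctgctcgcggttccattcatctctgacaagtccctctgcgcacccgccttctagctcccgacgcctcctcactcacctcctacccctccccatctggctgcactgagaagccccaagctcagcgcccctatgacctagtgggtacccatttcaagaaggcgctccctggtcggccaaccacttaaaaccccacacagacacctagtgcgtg
Hoxd4, chr2:74721728-74721977, plus strand: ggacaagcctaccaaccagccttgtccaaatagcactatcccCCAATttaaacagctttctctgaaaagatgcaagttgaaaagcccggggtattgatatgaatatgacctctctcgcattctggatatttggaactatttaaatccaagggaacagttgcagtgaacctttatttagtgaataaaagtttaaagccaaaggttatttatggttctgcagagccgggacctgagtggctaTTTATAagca

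These windows hold 18, 14 and 3 CpG dinucleotides. Before the outermost GENCODE starts, used for the medians above, Hoxa3 held 10, Hoxb4 14 and Hoxd4 12, so the order depends on the start used. The Hoxd4 window has 1 match to TATAAA and 1 to CCAAT, and the others have no match to the 3 motifs. Over all protein-coding genes, 11.52% of windows of the same length held TATAAA, 39.02% GGGCGG and 35.99% CCAAT. The Hoxa3 and Hoxd4 starts in RefSeq lie inside the genes, downstream of their outermost GENCODE starts.

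The study was set up to compare the mark with and without E-cadherin, in each sex. None of the 38 Hox promoters differed between the 5 ΔEcad and 4 Ecad lines by Fisher's exact test, two-sided, at an unadjusted p under 0.05, against 3.01% of all protein-coding genes. With these numbers of lines a gene can reach that threshold only if it is called in 3 to 6 lists. This held for 5 of the 38 (Hoxa3, Hoxb2, Hoxb3, Hoxb4 and Hoxb9) and for 3010 of all genes. The count of 0 thus rests on those 5, here and in the comparisons that follow. Of the 3010 genes, 22% passed in this comparison, 11.9% between the sexes and 32.6% between the female ΔEcad and the other lines. The smallest p was 0.4444 (Fisher's exact test), at Hoxa7, called in 1 of 4 Ecad and 0 of 5 ΔEcad lines, and its adjusted p over all genes was 1. Hoxa7, called in 1 list, could not reach the threshold. Among the 5 genes that could, the smallest p was 0.5238 (Fisher's exact test). Between the 5 female and 4 male lines 0 of 38 passed, against 1.63% of all genes. The smallest p was again 0.4444 by Fisher's exact test, at Hoxa7 and Hoxb6. Hoxa7 was called in 1 of 4 male and 0 of 5 female lines, and Hoxb6 in 2 of 5 female and 0 of 4 male lines. Neither could reach the threshold, and among the 5 genes that could, the smallest p was 0.5238 by Fisher's exact test. Between the 3 female ΔEcad lines and the other 6, 0 of 38 passed, against 4.46% of all genes, with a smallest p of 0.3333 by Fisher's exact test at Hoxb7 and Hoxb8. These could not reach the threshold either. Among the 5 genes that could, the smallest p was 0.4643 by Fisher's exact test. After adjustment over all 21951 genes 0 genes passed in any of these comparisons, while 661, 357 and 980 genes had an unadjusted p under 0.05. Lines are the replicates, and p-values measure the spread between them.

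The covered length of whole clusters was compared next. HoxB was covered over 12.14 ± 10.98 kb (SD, n = 5) in ΔEcad and 11.79 ± 13.64 kb (SD, n = 4) in Ecad lines, a difference of 0.3558 kb (exact two-sided permutation test, p = 0.9683). Of 16366 windows of 100 kb tested in the same way with the 4 cluster spans among them, 12% had an unadjusted p under 0.05 and 0 passed after adjustment. HoxA was covered over 0.1804 ± 0.4034 kb (SD, n = 5) in ΔEcad and 1.13 ± 1.631 kb (SD, n = 4) in Ecad lines, which did not pass the exact permutation test either (p = 0.2857). The difference of -0.9494 kb was -0.1733 kb without Ma_1007. The direction of the HoxB difference changed when single lines were left out, so no direction is given for it.

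Female lines had 14.13 ± 12.71 kb (SD, n = 5) of HoxB covered and male lines 9.309 ± 10.7 kb (SD, n = 4), which differed by less than the spread between lines (exact permutation p = 0.5397, with 6.55% of windows under 0.05). In the female ΔEcad lines HoxB was covered over 8.159 ± 12.87 kb (SD, n = 3), against 13.9 ± 11.35 kb (SD, n = 6) in the other lines (exact permutation p = 0.5357, with 15.1% of windows under 0.05). That difference of -5.74 kb ranged from -13.16 kb without Ma_1069 to -1.661 kb without Ma_1057. For HoxA the exact permutation p was 0.2857 between the sexes and 0.75 between the female ΔEcad and the other lines. With these numbers of lines the smallest p was 0.007937 for the first comparisons and 0.0119 for the last.

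The HoxB group means differed in opposite directions in the 2 sexes, and the difference within a sex was not tested. An exact permutation of 2 lines against 2, or of 3 against 2, cannot reach a p under 0.05. In males the mean was 0.4975 ± 0.7036 kb (SD, n = 2) in Ecad and 18.12 ± 5.687 kb (SD, n = 2) in ΔEcad lines (ΔEcad minus Ecad 17.62 kb), and the groups did not overlap. In females it was 23.08 ± 6.925 kb (SD, n = 2) in Ecad and 8.159 ± 12.87 kb (SD, n = 3) in ΔEcad lines (ΔEcad minus Ecad -14.92 kb), and the groups overlapped because Ma_1069 (22.99 kb) lay between Ma_1039 (18.18 kb) and Ma_1014 (27.98 kb). The female minus the male difference was -32.54 kb, which did not pass an exact permutation test of the sex labels within genotype (60 arrangements, p = 0.06667). That test was chosen after the data had been seen and was not run over the 100 kb windows, so it has no background. For HoxA the same test gave p = 0.1667 by exact permutation. The male ΔEcad lines that make up the higher mean did not carry the same part of HoxB, Ma_1062 being covered before and over Hoxb9 and Ma_1456 from the region before Hoxb4 to Hoxb2.

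**Figure D4:**
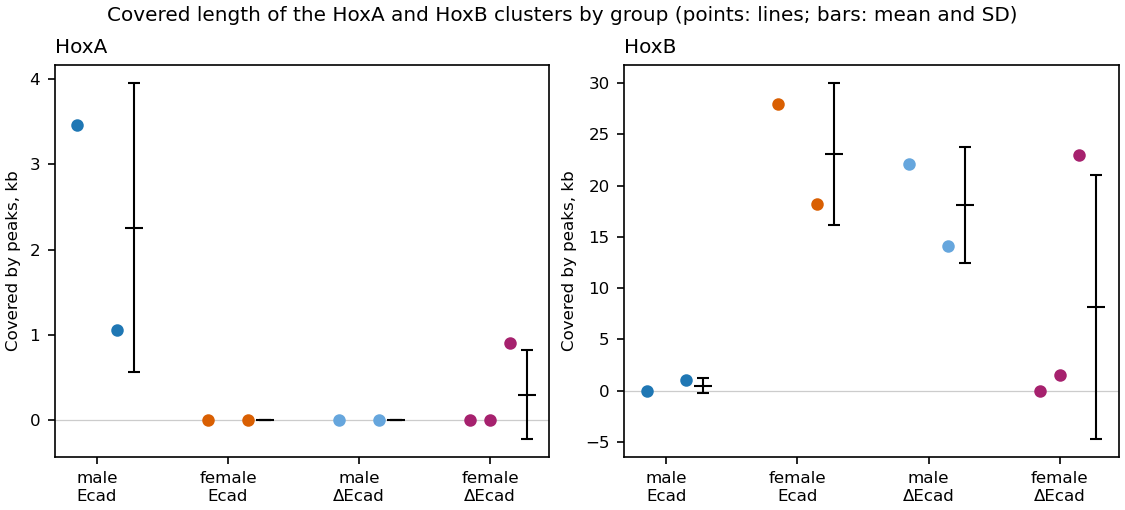
Length of HoxA (left) and HoxB (right) covered by peaks, in kb, by group. Points are lines and the black bars are the mean and SD of each group (n = 2, 2, 2 and 3). HoxA is covered in both male Ecad lines and 1 female ΔEcad line, and in HoxB the female ΔEcad lines spread from 0 to 22.99 kb.

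Genes of Hox cofactors and of the complexes that act on the clusters were for the most part called in more lines than Hox genes. Of 8 TALE-class cofactors, homeodomain proteins that bind DNA with Hox proteins, 4 to 6 were called per line. Pbx2 and Pknox1 were called in all 9, while Pbx3 and Pknox2 were each called in Ma_1007, Ma_1181, Ma_1014, Ma_1039 and Ma_1062. Both were thus called in 4 of 4 Ecad and 1 of 5 ΔEcad lines (Fisher's exact p = 0.04762 each). Female ΔEcad against the other lines gave the same p for both by Fisher's exact test. An unadjusted p under 0.05 held for 3.01% and 4.46% of all genes in these comparisons, and neither gene passed after adjustment. Every ΔEcad list also had fewer promoters of all genes called (25.31% to 39.47%) than every Ecad list (40.03% to 48.6%). The part of this in the calls was not tested. Of the 4 lines without Pbx3 and Pknox2 calls, Ma_1456 and Ma_1069 had 3 and 5 Hox members called and Ma_1057 and Ma_1064 had 0, and a relation was not tested.

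Polycomb complexes keep Hox genes silent and trithorax complexes keep them active. Of 11 genes of Polycomb complex 2, 6 to 10 were called per line, of 16 genes of Polycomb complex 1, 7 to 15, and of 13 trithorax genes, 10 to 13. Ma_1069 had the fewest in each of the 3 lists (6, 7 and 10), and also the fewest promoters of all genes. Phf1, a partner of Polycomb complex 2, was called in the 6 lines other than female ΔEcad and in none of those (Fisher's exact p = 0.0119, a comparison with an unadjusted p under 0.05 for 4.46% of all genes). The female ΔEcad lines also had the lowest shares of all promoters called, 25.31% to 33.34% against 38.38% to 48.6% in the other lines, and the part of this in the Phf1 call was not tested. Cbx6 and Cbx8, chromobox subunits of Polycomb complex 1, were called in 3 and 5 lines. Fisher's exact p was 0.04762 each for ΔEcad against Ecad lines, where 3.01% of all genes had an unadjusted p under 0.05. For Cbx8, Fisher's exact p was also 0.04762 for female ΔEcad against the other lines. The part of the lower share of calls in ΔEcad lists in these was not tested. None of these genes passed after adjustment. Of 7 genes of boundary proteins such as CTCF and cohesin, 6 or 7 were called.

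Retinoic acid is a known inducer of Hox genes, and Cdx proteins are known regulators of the central ones. They were counted in a list of 14 genes that also held Gsx1, Gsx2, Pdx1, Evx1 and Evx2, which were called in no line. Of the 14, 2 to 4 were called per line. The retinoic acid receptor genes Rarg, Rara and Rarb were called in 9, 8 and 8 lines, and Cyp26b1, which breaks retinoic acid down, in Ma_1062 alone. Cdx1, Cdx2, Cdx4 and Aldh1a2, which makes retinoic acid, were called in none.

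Markers of other cells were called unevenly between lines. The fibroblast list had 3 of 10 genes called in Ma_1007 (Pdgfra, Prrx1 and Fap), 0 in Ma_1062 and 1 in each of the other lines. By group the range was 1 to 3 in male Ecad, 1 in female Ecad, 0 to 1 in male ΔEcad and 1 in female ΔEcad lines, and Col1a1, Col1a2 and Col3a1 were called in no line. Of the endothelial and immune lists, Tek and Spi1 were called in Ma_1007 alone. Cd68, a macrophage marker, was called in the 4 male lines and in none of the 5 female lines (Fisher's exact p = 0.007937). That comparison had an unadjusted p under 0.05 for 1.63% of all genes, and Cd68 did not pass after adjustment over all genes. Ptprc, Cd3e and Itgam were called in no line. Ma_1007 also had the longest list of peaks. The part of these in the HoxA peaks of Ma_1007, or in differences between the sexes, was not tested.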

How the data were processed

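H3K27ac ChIP-seq had been performed on fixed, sonicated chromatin of 9 lines, and libraries were sequenced to a common target depth. The authors aligned reads to GRCm38 (mm10), and the submitters' processing notes name Bowtie2 2.4.5, MACS2 2.2.7.1 and deepTools 3.5.1.0.0 without roles. Caller settings and the input used for each list are not given in the sources used here, and the 4 input libraries were not analysed here. Each deposited list gives per peak a score, a fold enrichment (a linear ratio), the −log10 p and −log10 q, and the offset of the summit, all as the authors' caller made them for 1 line. The lowest −log10 q implies that the authors kept peaks at a q-value of 1e-05 or below. These values rank peaks within a list and are not comparable depths.

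Promoter calls used all annotated starts in GENCODE M21 (55450 genes) and an overlap of at least 1 bp with the window of 1 kb on each side. Calls were compared by Fisher's exact test and covered kb by exact permutation of lines, two-sided, with Benjamini-Hochberg adjustment over all genes or over all 100 kb windows with a peak plus the 4 cluster spans. Percentiles rank peaks by −log10 q within a list. Of the 39 members, 38 are named (1, like 1 gene of another list, is not reported here), and peak values are given for those called in 1 to 8 lists. Genes of the other lists were named when Fisher's exact test gave an unadjusted p under 0.05, or as examples. Many others called in 1 to 8 lists are not named. The named ones are thus partly picked by their result and do not stand for their lists. CpG and motif counts were read from the genome, since the RefSeq promoter table held 22 of these 38 (57.89%), which voids a check on that table. That count and the test of the sex difference were added after the data had been seen. The members and lists were chosen with earlier results of these data known. Line numbers name lines and do not pair them, and the labels give no batch. The tests recovered planted differences in simulated data, but these separated the groups fully, so recovery says nothing of smaller or overlapping differences. Python 3.11.15, NumPy 2.4.6, SciPy 1.17.1 and Matplotlib 3.10.9 were used.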

Additional observations from a re-analysis of the deposited data

Results flagged for a closer look

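The covered length of HoxA was 0.902 kb in Ma_1069, the only ΔEcad line and the only female line with a peak in HoxA. The other 4 ΔEcad lines and the other 4 female lines were all at 0 kb, so that Dixon's ratio is 1 for a peak of any size and says nothing of how large it is. That value rests on the single weak peak at Hoxa3 described above, and its cause was not tested. Ma_1007, with 3.458 kb, passed Dixon's test against the other 5 lines that are not female ΔEcad, of which Ma_1181 had 1.061 kb and the rest 0 kb. Of 15 groups of lines tested, 3 stood out in HoxA, but both groups with Ma_1069 hold the same value and the groups share lines. The usual chance rate of about 1 in 20 does not apply where the other lines are at 0, so no excess over chance is read from this count.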

How the results depend on the processing

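No paired analysis was possible because the lines come from different tumours and the replicate numbers only name them. The difference in covered HoxB between ΔEcad and Ecad lines changed sign without Ma_1007 (-3.574 kb), Ma_1181 (-3.242 kb), Ma_1062 (-2.144 kb), Ma_1456 (-0.1332 kb) or Ma_1069 (-2.356 kb), and reached 5.752 kb without Ma_1014, with exact permutation p of at least 0.4821 throughout. The HoxA difference between the female ΔEcad and the other lines (-0.4525 kb) became 0.08847 kb without Ma_1007 (and -0.7532 kb at the lowest, without Ma_1069). The HoxA difference was -0.1733 kb without Ma_1007 for genotype and for sex (-0.9494 kb each with all lines). For HoxB the sex difference of 4.818 kb ranged from 1.355 kb without Ma_1014 to 9.095 kb without Ma_1062, and that of the female ΔEcad lines from -13.16 kb without Ma_1069 to -1.661 kb without Ma_1057. No other result in these comparisons changed its direction or its side of the threshold under a promoter window of 500 bp or 2.5 kb, the outermost start alone, the stronger peaks, lists of equal length, a span widened by 20 kb, scaling to the covered genome or leaving out a line. Members called in at least 1 line numbered 7 to 9 and HoxC and HoxD stayed at 0. Single genes moved more: with the stronger peaks of each list Hoxa3 and Hoxb6 were called in 1 line each, and with lists of equal length Hoxb6 in 1. Without Ma_1069, Hoxb7 and Hoxb8 had no call, and without Ma_1007, Hoxa7 had none. The unknown depth limits every missing peak.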
